A study of Mus musculus with 8 samples.

Results

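Transcripts of 8 adipocyte-enriched genes were followed in epididymal white fat, the visceral pad along the epididymis of male mice. They are Arxes1 and Arxes2, whose products resemble a subunit of the signal peptidase, Adig (adipogenin), Tusc5 (now Trarg1), Car3 (carbonic anhydrase 3), and the caveola genes Cav1, Cav2 and Ptrf (now Cavin1). The 8 genes were taken by name from the 37417 genes of the deposited table, and all 8 were found, the table writing Tusc5 and Ptrf in the older form. They were chosen by name with their read counts in knockout and wild-type fat, in these same libraries, already known. Their differences between genotypes are therefore a description, and no p-value of theirs supports anything. All 8 passed the filter on low counts, which left 14800 genes for the fit.

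The mice with floxed Atg3 were labelled Adiponectin-Cre ERT2-Atg3 flox/flox and are called knockout here; the other mice were labelled WT. There were 4 libraries of each genotype, all from C57Bl/6 males on chow, and the labels give tamoxifen for every mouse. The adiponectin promoter drives Cre in adipocytes, so endothelial, stromal and immune cells of the pad were not targeted; the sources used here do not state age, the floxed exons or any allele carried by the WT mice. Atg3 encodes the enzyme that couples LC3-family proteins to lipid during autophagosome formation, and it had 30.3 ± 1.84 CPM in knockout and 50.2 ± 4.34 CPM in wild-type fat (SD, n = 4), with no overlap. CPM are reads of a gene per 1e+06 counted reads, scaled between libraries by TMM.

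Caveolae are flask-shaped pits of the plasma membrane that are dense in adipocytes. Caveolin-1 and caveolin-2 form their membrane coat and cavin-1, the product of Ptrf, the outer coat that caveolin-1 needs to bend the membrane; loss of CAV1 or PTRF causes lipodystrophy in people. The Arxes genes are intronless X-linked copies of Spcs3, a subunit of the complex that removes signal peptides in the endoplasmic reticulum, and they are switched on by PPARG in adipogenesis. TUSC5 takes part in insulin-regulated traffic of the glucose transporter GLUT4, adipogenin is a small membrane protein made in maturing adipocytes, and carbonic anhydrase 3 is a cytosolic enzyme that mouse fat holds in large amounts.

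Total counts ran from 12952190 to 21688464 in knockout and from 10986375 to 17128811 in wild-type libraries. Duct markers, liver markers and mitochondrial transcripts set libraries apart. The sum of 12 duct epithelium markers, all 12 detected, was 31.4, 516, 519 and 43.6 CPM in knockout libraries 1 to 4, against 8.45 to 19.2 CPM in wild-type libraries, where Elf3 was at 0 in all 4. A sum of 5 liver markers, most of it Alb, was 48.6, 16, 11.2 and 80.2 CPM in knockout libraries 1 to 4 and 8.60 to 25.0 CPM in wild-type libraries. Mitochondrial transcripts took 5.03 to 6.08% of the counts in knockout and 3.05 to 4.93% in wild-type libraries. Their part in the results on the 8 genes was not tested beyond the fits that follow. The fat itself was well marked: 13 of 13 adipocyte markers were detected, with a summed 38700 to 47480 CPM in knockout and 42460 to 57090 CPM in wild-type libraries.

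The sequences of Arxes1 and Arxes2 come first, because they decide what their counts can show. In GENCODE M21 (build GRCm38) both genes have 1 exon and 540 coding bases, whereas Spcs3 has its 540 coding bases on 5 exons. The coding sequences of Arxes1 and Arxes2 were identical at all 540 bases, and both were identical to Spcs3 at 427 of 540 bases (79.1%). The first 90 coding bases show this relation; capitals mark the 12 bases at which the X-linked copies and Spcs3 differ.
Arxes1: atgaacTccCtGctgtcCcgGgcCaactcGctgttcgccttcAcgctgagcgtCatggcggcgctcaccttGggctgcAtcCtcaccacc
Arxes2: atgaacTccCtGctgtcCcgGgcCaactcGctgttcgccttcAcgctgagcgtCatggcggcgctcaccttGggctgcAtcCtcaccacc
Spcs3: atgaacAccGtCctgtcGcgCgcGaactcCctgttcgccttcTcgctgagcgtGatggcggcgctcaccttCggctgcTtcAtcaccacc

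The identity runs into the promoter. RefSeq windows from 250 bases before to 50 bases after the start of transcription, build GRCm38.p6, were available for 6 of the 8 genes, and those of Arxes1 (chrX:136033117-136033416, plus strand) and Arxes2 (chrX:135993570-135993869, plus strand) were identical at 300 of 300 bases. Both are shown by the sequence of Arxes1, with the 2 GC boxes (GGGCGG, searched on both strands) in capitals.
Arxes1: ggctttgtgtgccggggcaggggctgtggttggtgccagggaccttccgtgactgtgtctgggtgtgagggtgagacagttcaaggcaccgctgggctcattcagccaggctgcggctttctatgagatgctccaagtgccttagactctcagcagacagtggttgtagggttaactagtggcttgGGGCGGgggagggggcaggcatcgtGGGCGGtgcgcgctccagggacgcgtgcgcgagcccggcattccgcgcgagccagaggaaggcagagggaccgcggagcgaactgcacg
A GC box is a common feature, present in 35.88% of the 32544 distinct promoter windows of the table. The window of Adig (chr2:158502362-158502661, plus strand) held no GC box but the nuclear receptor half-site AGGTCA, present in 16.25% of windows, and 2 bases before it a match to the C/EBP motif TTNNGNAA, read on the reverse strand and present in 40.67% of windows; both are in capitals, and they do not overlap.
Adig: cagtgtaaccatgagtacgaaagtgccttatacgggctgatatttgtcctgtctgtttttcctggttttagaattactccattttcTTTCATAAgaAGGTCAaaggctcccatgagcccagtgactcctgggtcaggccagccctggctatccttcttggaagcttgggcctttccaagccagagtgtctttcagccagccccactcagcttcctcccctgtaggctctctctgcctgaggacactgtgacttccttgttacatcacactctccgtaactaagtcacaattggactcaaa
The full PPAR-type direct repeat, AGGTCA and AGGTCA with any 1 base between (DR1), occurred in 13 of the 32544 windows and in none of those of the 6 genes. A match of letters is a description of the window and not a binding site.

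Reads were 50 bases long, so a read from the common stretch fits both Arxes genes. Of the 1531 possible 50-base windows of the Arxes1 transcript, 595 (38.9%) also occur in Arxes2, and of 1483 windows of Arxes2 the same 595 (40.1%) occur in Arxes1. The shared windows cover the coding part, and the windows of Arxes1 from base 650 to base 1531 are its own, nearly all of them in the 3′ untranslated region. The sources used here do not say how the authors' counting treated reads that fit both, and the counts of both genes are therefore uncertain. In the other 6 genes 100.0% of the windows were the gene's own among GENCODE transcripts.

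**Figure D1:**
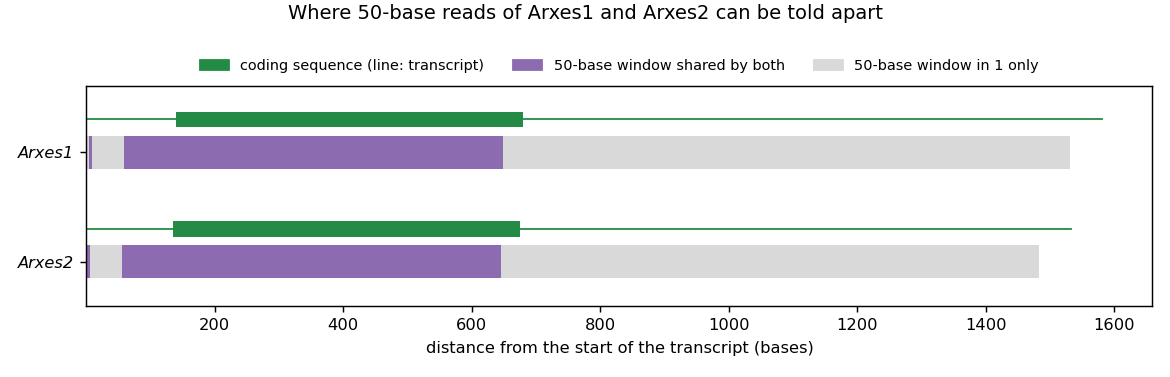
Map of the Arxes1 and Arxes2 transcripts, with distance from the transcript start in bases. Green marks the coding sequence, purple the 595 50-base windows that both transcripts hold and grey the windows found in 1 of them; the coding part is shared, and the grey stretch behind it tells the genes apart.

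Arxes1 (ENSMUSG00000048355) lies on chromosome X from 136033366 to 136034946 on the plus strand (mm10) and had the largest difference of the 8. It held 16.5, 19.9, 18.5 and 15.6 CPM in knockout libraries 1 to 4, against 39.5, 26.7, 35.6 and 37.3 CPM in wild-type libraries 1 to 4. Each knockout library was below each wild-type library. The means were 17.6 ± 1.93 CPM in knockout and 34.8 ± 5.59 CPM in wild-type fat (SD, n = 4), 1.97-fold lower in knockout, with a log2 fold change of -0.98 (SE 0.14), from 214 to 325 reads per knockout library and 434 to 570 per wild-type library. In bulk tissue, fewer adipocytes and less of a transcript per adipocyte cannot be told apart.

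Arxes2 (ENSMUSG00000048040), its neighbour on the same strand (135993819 to 135995359), held 101, 90.2, 120.0 and 65.7 CPM in knockout libraries 1 to 4. Wild-type libraries 1 to 4 held 176, 110.0, 144 and 127 CPM. The genotypes overlapped, since knockout library 3 stood above wild-type library 2. The means were 94.1 ± 22.6 CPM in knockout and 139 ± 28.2 CPM in wild-type fat, a log2 fold change of -0.57 (SE 0.20). The ratio of Arxes1 to Arxes2 reads within a library does not depend on scaling between libraries. It was 0.164, 0.220, 0.154 and 0.238 in knockout libraries 1 to 4, against 0.224, 0.243, 0.247 and 0.294 in wild-type libraries 1 to 4, with knockout library 4 inside the wild-type range. Spcs3, the parent gene on chromosome 8, had 60.2 ± 2.55 CPM in knockout and 59.5 ± 6.81 CPM in wild-type fat (log2 fold change 0.02, SE 0.090, edgeR adjusted p = 0.945).

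Adig (ENSMUSG00000044405, chromosome 2, 158502611 to 158508198, plus strand) was the other gene without overlap in TMM-scaled CPM. Its level was 118, 105, 136 and 104 CPM in knockout libraries 1 to 4, against 159, 149, 173 and 137 CPM in wild-type libraries 1 to 4. The highest knockout library, library 3, stood just under the lowest wild-type library, library 4. This separation depended on the scaling. In the deposited FPKM, which are not scaled by TMM, knockout library 3 (175 FPKM) stood above wild-type library 4 (167 FPKM). The means were 116 ± 14.7 CPM in knockout and 154 ± 15.3 CPM in wild-type fat, a log2 fold change of -0.42 (SE 0.11).

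Tusc5 (ENSMUSG00000046275, chromosome 11, 76679807 to 76698664, plus strand) varied more between mice. Knockout libraries 1 to 4 held 334, 372, 323 and 499 CPM, against 417, 586, 877 and 547 CPM in wild-type libraries 1 to 4. Knockout library 4 stood above wild-type library 1, and the highest wild-type library held 2.10 times the lowest. The means were 382 ± 80.7 CPM in knockout and 607 ± 194 CPM in wild-type fat, a log2 fold change of -0.67 (SE 0.23).

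Car3 (ENSMUSG00000027559, chromosome 3, 14863537 to 14872351, plus strand) alone took 1.18 to 1.80% of all counts in knockout and 1.501 to 2.24% in wild-type libraries. It held 17613, 17928, 11217 and 17307 CPM in knockout libraries 1 to 4, against 14184, 15889.9, 23929 and 19081 CPM in wild-type libraries 1 to 4. Knockout libraries 1, 2 and 4 lay within the wild-type range and library 3 below it. The log2 fold change was -0.19 (SE 0.23), with a 95% interval from -0.71 to 0.33. Car3 is also a gene of slow muscle fibres. The sum of 11 muscle markers was 13.6 to 39.2 CPM in knockout and 16.6 to 46.3 CPM in wild-type libraries. All 11 had reads, but only 3 passed the filter on low counts. Acta1 was the highest of them in every library, and Myh7 stood at 0 to 0.154 CPM.

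**Figure D2:**
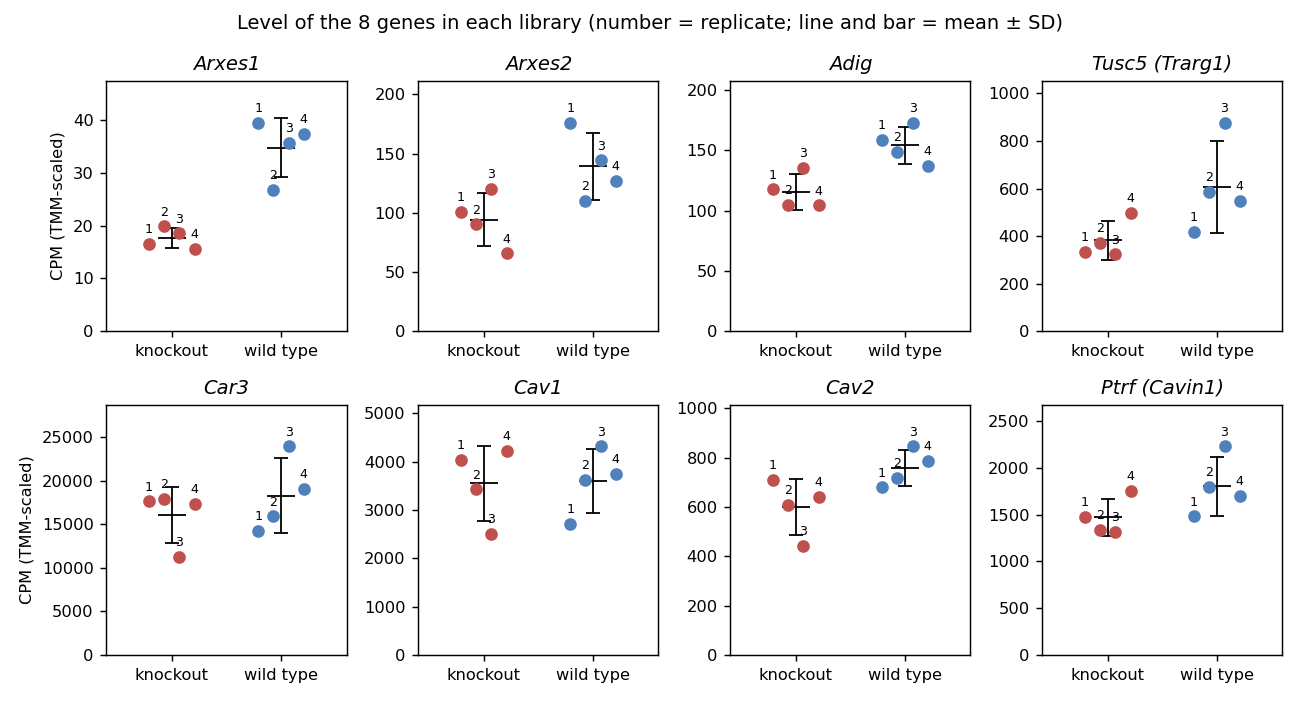
Level of each of the 8 genes in TMM-scaled CPM (vertical axes start at 0) in the 4 knockout libraries, left, and the 4 wild-type libraries, right, numbered by replicate, with mean ± SD. For Arxes1 and Adig the genotypes do not overlap; for Cav1 the means are 3545 CPM in knockout and 3596 CPM in wild-type fat.

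Among the caveola genes, Cav1 (ENSMUSG00000007655, chromosome 6, 17306334 to 17341452, plus strand) had the smallest difference. It held 4032, 3425, 2508 and 4217 CPM in knockout libraries 1 to 4, against 2716, 3619, 4312 and 3737 CPM in wild-type libraries 1 to 4. The ranges lay over each other. The means were 3545 ± 769.6 CPM in knockout and 3596 ± 660.1 CPM in wild-type fat, a log2 fold change of -0.02 (SE 0.20) with a 95% interval from -0.48 to 0.44, so changes within that interval, in either direction, could not be told from none.

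Cav2 (ENSMUSG00000000058), its neighbour on the plus strand of chromosome 6 (17281184 to 17289115), held 711, 607, 441 and 639.8 CPM in knockout libraries 1 to 4. Wild-type libraries 1 to 4 held 679, 717, 845 and 786 CPM, so only knockout library 1 reached into the wild-type range. The means were 599 ± 114 CPM in knockout and 757 ± 73.7 CPM in wild-type fat, a log2 fold change of -0.34 (SE 0.15). Ptrf (ENSMUSG00000004044, chromosome 11, 100956732 to 100970887, minus strand) held 1473, 1338, 1312 and 1752 CPM in knockout libraries 1 to 4, against 1480.05, 1793, 2227 and 1702 CPM in wild-type libraries 1 to 4. Only knockout library 4 reached into the wild-type range. Its means were 1469 ± 202 CPM in knockout and 1801 ± 313 CPM in wild-type fat, a log2 fold change of -0.29 (SE 0.16). An antisense gene model, Gm15581, spans Cav1 and Cav2 but held 8 reads over all libraries, against 425993 for Cav1 and 79599 for Cav2.

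The read ratio of Cav2 to Cav1 separated the genotypes, although neither level did. There were 0.176, 0.177, 0.176 and 0.152 Cav2 reads per Cav1 read in knockout libraries 1 to 4, against 0.250, 0.198, 0.196 and 0.210 in wild-type libraries 1 to 4. The highest knockout ratio (library 2, 95% counting interval 0.173 to 0.181) stood below the lowest wild-type ratio (library 3, interval 0.192 to 0.200). The ratio of Ptrf to Cav1 reads was 0.365, 0.391, 0.523 and 0.416 in knockout libraries 1 to 4, against 0.545, 0.496, 0.517 and 0.455 in wild-type libraries 1 to 4, with knockout library 3 inside the wild-type range. Intervals cover counting error only. These ratios come from the levels just given and are a description like them. Another pair also separated, although there the level of Car2 did so by itself. Car3 reads per Car2 read ran from 646 to 3224 in knockout and from 3585 to 7884 in wild-type libraries. The 95% counting intervals of the nearest libraries overlapped (knockout library 1, 2556 to 4128, and wild-type library 1, 2688 to 4897). The share of all gene pairs whose ratio separates the genotypes was not determined.

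**Figure D3:**
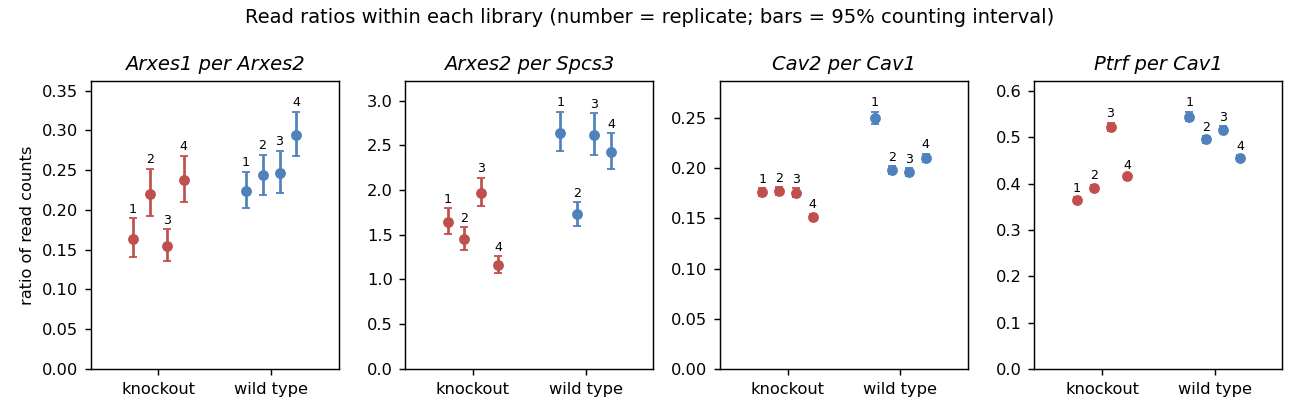
Ratio of read counts of 2 genes within each library, for Arxes1 to Arxes2, Arxes2 to Spcs3, Cav2 to Cav1 and Ptrf to Cav1, with knockout libraries left, wild-type libraries right and 95% exact counting intervals. For Cav2 to Cav1 the knockout libraries lie between 0.152 and 0.177, all below the wild-type libraries at 0.196 to 0.250.

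As a group, the 8 genes had a median log2 fold change of -0.38, against -0.01 over all 14800 genes tested and -0.29 over the 13 adipocyte markers. All 8 were below 0, as were 52.4% of all genes tested. In TMM-scaled CPM the genotypes did not overlap for 2 of the 8, both lower in knockout, which held for 4.54% of all genes. By the same measure 0 of the 8 were higher without overlap, against 4.32% of all genes. With edgeR's quasi-likelihood test, 1 of the 8, Arxes1, passed an adjusted p of 0.05 as lower in knockout, against 0.128% of all genes, and 0 passed as higher, against 0.277%. Of the 8, 4 had an unadjusted p under 0.05, against 16.2% of all genes; DESeq2 called 2 of the 8, Arxes1 and Adig, against 5.61% of all genes in either direction, and limma-voom called Arxes1 alone, against 0.304%. These counts describe genes picked with this comparison in view, and nothing is read from them. The adjusted p of Arxes1 was 0.0281; it was 0.0888, 0.0687 and 0.0612 without knockout libraries 2, 3 and 4 and 0.0679, 0.0678 and 0.101 without wild-type libraries 1, 3 and 4. It was 0.105 without both knockout libraries 2 and 3, which held most duct marker reads, and 0.256 with the duct marker level as a covariate, while the log2 fold change was -1.10 and -1.19 in these fits. For Cav1, Cav2 and Car3 the covariate turned the sign, to 0.41, 0.02 and 0.08, and the median of the 8 was then -0.26. The duct marker sum itself did not overlap between genotypes (31.4 to 519 CPM in knockout, 8.45 to 19.2 CPM in wild-type libraries). The covariate was the mean log2 CPM of the same markers, and its own overlap between genotypes was not determined. With duct marker sums apart, the covariate fit cannot fully tell duct content from genotype.

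The course of the 8 genes over the libraries was compared pair by pair. Likeness was measured as the root mean square difference of log2 CPM, each gene centred on its mean over the 8 libraries. Car3 and Cav1 were closest (0.15), followed by Car3 and Cav2 (0.16) and Cav2 and Ptrf (0.18). The other pairs among Car3, Cav1, Cav2 and Ptrf lay between 0.20 and 0.21. Arxes2 and Adig came after them at 0.22, Tusc5 and Ptrf at 0.23, Adig and Ptrf at 0.25 and Arxes1 and Arxes2 at 0.29, and Arxes1 and Cav1 were farthest apart (0.61). Within the knockout libraries, library 3 was the lowest for Tusc5, Car3, Cav1, Cav2 and Ptrf, and library 4 for Arxes1, Arxes2 and Adig. Within the wild-type libraries, library 3 was the highest for Adig, Tusc5, Car3, Cav1, Cav2 and Ptrf, and library 1 for Arxes1 and Arxes2. Knockout library 3 also held the lowest summed adipocyte markers of the 8 libraries (38700 CPM) and wild-type library 3 the highest (57090 CPM); their part in these levels was not tested.

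**Figure D4:**
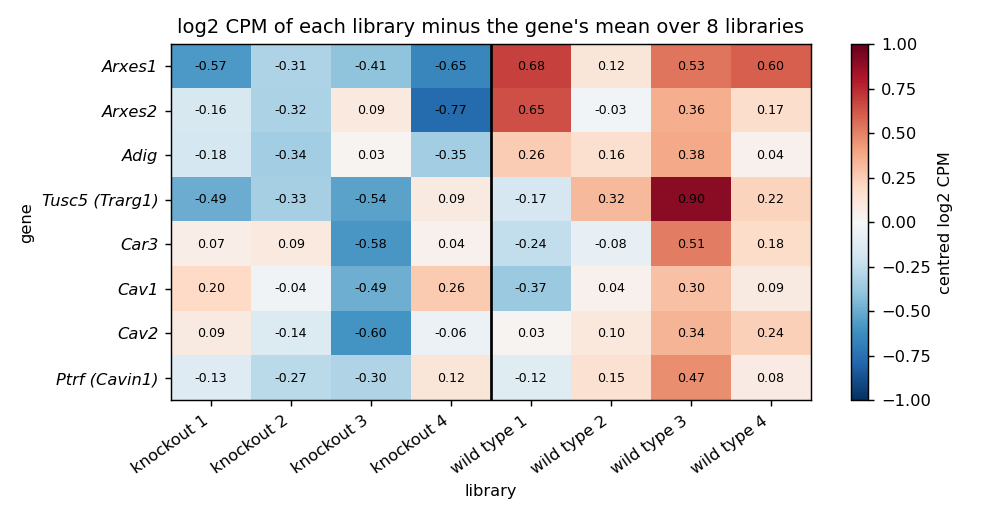
Log2 CPM of the 8 genes (rows) in the 8 libraries (columns, knockout left of the line), each minus the gene's mean over all libraries; red is above and blue below that mean. Knockout library 3 is low for Car3, Cav1 and Cav2 (-0.58, -0.49 and -0.60), and wild-type library 3 is high for Tusc5 (0.90).

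Among 12802 other tested genes of at least 1 CPM, those most like Arxes1 by the same measure were Aspa, an N-acetylaspartate hydrolase (0.15), Atg3 itself (0.17), Selp (P-selectin, 0.18), Thbd (thrombomodulin, 0.20) and Etohi1 (0.21), all nearer to it than Arxes2 was (0.29). Aspa had 19.4 ± 1.69 CPM in knockout and 38.2 ± 4.80 CPM in wild-type fat (log2 fold change -0.98, edgeR adjusted p = 0.0168), and Thbd had 178 ± 23.3 CPM in knockout and 330.4 ± 71.9 CPM in wild-type fat (log2 fold change -0.89, adjusted p = 0.0653). Etohi1 was scarce, with 0.977 ± 0.193 CPM in knockout and 1.76 ± 0.0596 CPM in wild-type fat and 159 reads over all libraries. Genes picked for likeness to Arxes1 share its difference between genotypes by choice. Their values are a description, and these p-values support nothing. Nearest to Arxes2 was Cfd, the adipocyte protein adipsin (0.12), with 5274 ± 1079 CPM in knockout and 7275 ± 1642 CPM in wild-type fat. Hey2 (0.15), Spata22 (0.18), N4bp2l1 (0.19) and Maneal (0.19) came next. Spata22 and Maneal overlap other gene models, so that their counts are uncertain. Hey2, Spata22 and Maneal were also scarce, with genotype means between 0.759 and 3.16 CPM. The mean course of the other 6 genes was most like those of Fgfrl1 (0.062), Cpeb2 (0.064), Cmbl (0.070), S100a13 (0.071) and Mcam (0.073). A gene model on the other strand overlaps Mcam and held 3727 reads, against 70279 for Mcam. The models that overlap Selp, Etohi1 and Cpeb2 held 0 to 5 reads.

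Levels of different genes can be compared only per length, for which the deposited FPKM values serve (reads per kilobase of exon and 1e+06 counted reads). Car3 was the highest of the 8, at 10618 ± 1919 FPKM in knockout and 11948 ± 2231 FPKM in wild-type fat, and ranked 3 in knockout and 2 in wild-type fat among all genes of the table. Cav1 followed with 1030.4 ± 196 FPKM in knockout and 1033 ± 142 FPKM in wild-type fat. Ptrf had 281 ± 29.3 FPKM in knockout and 340.4 ± 42.7 FPKM in wild-type fat, and Cav2 had 179.7 ± 31.0 FPKM in knockout and 225 ± 11.9 FPKM in wild-type fat. The order went on with Adig (144 ± 23.2 FPKM in knockout, 189 ± 18.2 FPKM in wild-type fat), Tusc5 (115 ± 20.3 FPKM in knockout, 181 ± 48.7 FPKM in wild-type fat) and Arxes2 (61.7 ± 16.9 FPKM in knockout, 90.2 ± 21.6 FPKM in wild-type fat). Arxes1 was lowest, with 11.2 ± 1.49 FPKM in knockout and 21.9 ± 4.05 FPKM in wild-type fat. The order was the same in both genotypes. Adig and Tusc5 overlapped in both, Cav2 and Adig overlapped in knockout libraries, and all other neighbours in the order were apart in every library of a genotype.

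The partners and relatives of these genes asked whether the differences extended along their pathways. Of 87 tested genes in 9 lists of such genes, 0 passed an adjusted p of 0.05 with edgeR, against 0.405% of all genes tested in either direction, and 21 of the 87 had an unadjusted p under 0.05, against 16.2% of all genes. Limma-voom called 0 of the 87, against 0.304% of all genes, and DESeq2 8, against 5.61%. Besides Sdpr and Ehd2, DESeq2 called Slc2a4 (adjusted p = 0.0122), Tbc1d4 (0.0125), Fitm2 (0.00215) and Ebf1 (0.0289) as lower in knockout. It called Car2 (0.0085) and Car12 (0.0295) as higher. The median log2 fold change of the 87 genes was -0.07.

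The other proteins of the caveola coat and neck gave 10 tested genes, 4 below and 6 above 0, with a median log2 fold change of 0.01. Sdpr, which encodes cavin-2, held 657, 559, 584 and 649.5 CPM in knockout libraries 1 to 4, against 822, 924, 958 and 796 CPM in wild-type libraries 1 to 4. The genotypes did not overlap. Its log2 fold change was -0.51 (SE 0.10), with an edgeR adjusted p of 0.0831 and a DESeq2 adjusted p of 3.73e-05. Ehd2, the ATPase at the caveolar neck, had 1062 ± 191 CPM in knockout and 1586 ± 233 CPM in wild-type fat (log2 fold change -0.58, SE 0.16, edgeR adjusted p = 0.148, DESeq2 adjusted p = 0.0142). Prkcdbp, which encodes cavin-3, had 231 ± 77.7 CPM in knockout and 219 ± 67.2 CPM in wild-type fat (log2 fold change 0.08, SE 0.27). Ehd3 had a log2 fold change of 0.57 (SE 0.18, edgeR adjusted p = 0.180). The muscle caveola genes were scarce: Murc (cavin-4) had 1.01 ± 0.448 CPM in knockout and 1.57 ± 0.626 CPM in wild-type fat, and Cav3 had 12 reads over all 8 libraries and did not enter the fit.

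Of 8 caveola-associated genes all 8 were below 0, with a median of -0.27. Slc2a4, the GLUT4 transporter, had 122 ± 32.5 CPM in knockout and 219 ± 48.9 CPM in wild-type fat without overlap (log2 fold change -0.84, SE 0.23, edgeR adjusted p = 0.140). Nos3, the endothelial nitric oxide synthase, had a log2 fold change of -0.26 (edgeR adjusted p = 0.311). Of 12 tested genes of GLUT4 vesicle traffic, the pathway of TUSC5, 9 were below 0, and the median was -0.12. Slc2a4 is counted in this list as well as in the caveola-associated list. Tbc1d4 (AS160), the Akt substrate that holds GLUT4 inside the cell, had 52.1 ± 4.10 CPM in knockout and 74.2 ± 13.2 CPM in wild-type fat without overlap (log2 fold change -0.51, SE 0.12, edgeR adjusted p = 0.121), and Vamp3, a vesicle SNARE, had a log2 fold change of -0.29 (adjusted p = 0.176). The 7 tested relatives of TUSC5 in the dispanin family had a median of -0.07, and their lowest edgeR adjusted p, that of Ifitm6 (log2 fold change -0.38), was 0.544.

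The signal peptidase itself was measured through 5 genes, all 5 tested and all above 0, with a median log2 fold change of 0.11. The lowest adjusted p was that of Sec11a, a catalytic subunit (log2 fold change 0.20, SE 0.081, edgeR adjusted p = 0.270), followed by Spcs1 (0.11, adjusted p = 0.533) and Spcs2 (0.14, adjusted p = 0.560). Arxes2 reads per Spcs3 read numbered 1.65, 1.45, 1.97 and 1.16 in knockout libraries 1 to 4, against 2.64, 1.73, 2.61 and 2.42 in wild-type libraries 1 to 4. Knockout library 3 reached above wild-type library 2. The 18 genes of protein translocation into the endoplasmic reticulum had a median of 0.09, with Sec61a2 at the lowest adjusted p (log2 fold change -0.28, SE 0.085, edgeR adjusted p = 0.170), followed by Srprb, a subunit of the signal recognition particle receptor (0.22, adjusted p = 0.227).

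**Figure D5:**
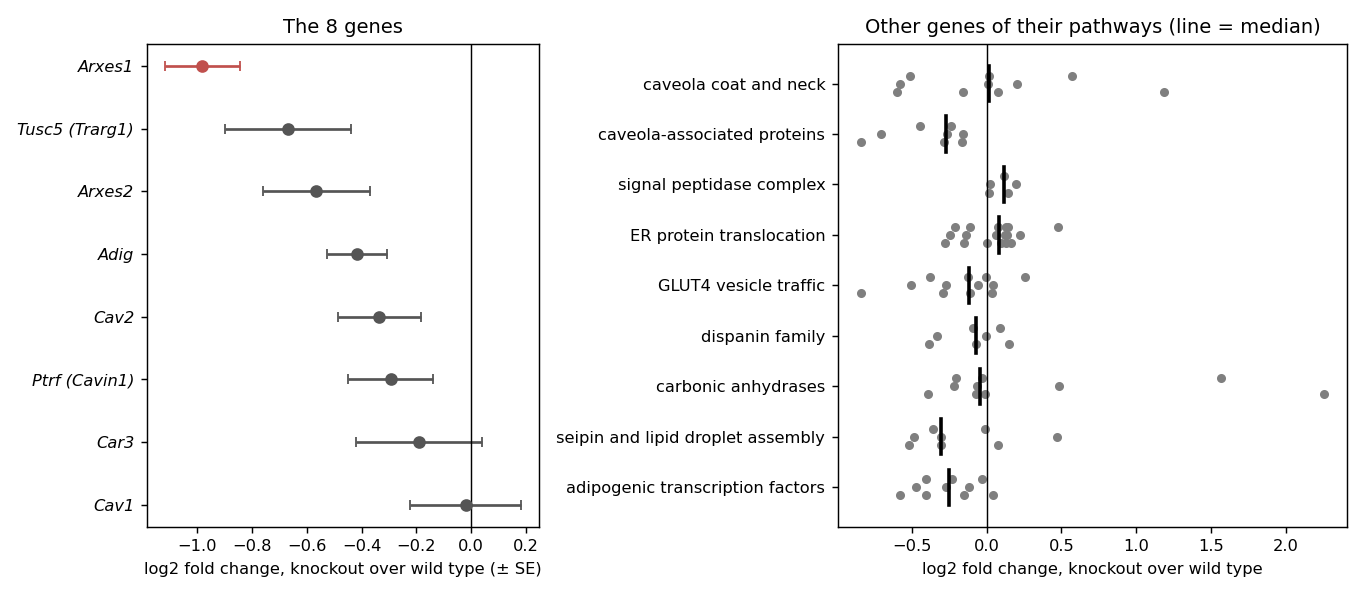
Log2 fold changes, knockout over wild type, of the 8 genes with their SE (left; red, adjusted p under 0.05 by edgeR) and of the 87 other genes by list (right; points are genes, black lines medians). Slc2a4 belongs to both the caveola-associated and the GLUT4 vesicle list and is drawn in each. Arxes1 stands at -0.98 and Cav1 at -0.02. The signal peptidase genes lie between 0.02 and 0.20.

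Other carbonic anhydrases gave 10 tested genes, with a median log2 fold change of -0.05. Car2, which lies beside Car3 on chromosome 3, held 5.46, 16.3, 17.4 and 5.62 CPM in knockout libraries 1 to 4, against 3.96, 3.41, 3.04 and 4.65 CPM in wild-type libraries 1 to 4. The genotypes did not overlap, and knockout libraries 2 and 3 were highest, the libraries with 516 and 519 CPM of duct markers, whose part in this was not tested. Its log2 fold change was 1.57 (SE 0.42, edgeR adjusted p = 0.138). Car12 had 3.08, 2.08, 1.77 and 8.55 CPM in knockout libraries 1 to 4, against 0.860, 0.176, 0.656 and 1.57 CPM in wild-type libraries 1 to 4 (log2 fold change 2.26, SE 0.68, edgeR adjusted p = 0.167), and Car5b had a log2 fold change of -0.21 (adjusted p = 0.398).

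Among 8 tested genes of seipin and lipid droplet assembly, the membrane neighbourhood of adipogenin, 6 were below 0, with a median of -0.30. Fitm2, which helps lipid droplets form, had 199 ± 8.97 CPM in knockout and 245 ± 14.3 CPM in wild-type fat without overlap (log2 fold change -0.30, SE 0.076, edgeR adjusted p = 0.128), and Cidec, which fuses droplets, had a log2 fold change of 0.47 (adjusted p = 0.330). Lpin1, the phosphatidate phosphatase lipin-1, had one of -0.49 (adjusted p = 0.213). Of 10 adipogenic transcription factors 9 were below 0, with a median of -0.25. Ebf1 had 140.2 ± 21.4 CPM in knockout and 185 ± 4.08 CPM in wild-type fat without overlap (log2 fold change -0.40, SE 0.11, edgeR adjusted p = 0.143). Cebpa had a log2 fold change of -0.40 (adjusted p = 0.186), and Ebf2 one of -0.47 (adjusted p = 0.189).

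Caveolins and cavins are also abundant in endothelium, so markers of that cell type were set beside them. The 11 endothelial markers, all 11 detected and none at 0, came to a sum of 1998, 1900, 1990 and 2221 CPM in knockout libraries 1 to 4, against 2418, 2720, 2409 and 2309 CPM in wild-type libraries 1 to 4. The knockout libraries were all lower, with means of 2027 ± 137 CPM in knockout and 2464 ± 178 CPM in wild-type fat (two-sided exact permutation p = 0.0286, the smallest that 70 assignments allow, and 0.0571 adjusted over the 2 marker sums tested). By gene their edgeR adjusted p-values ran from 0.0716 (Emcn) to 0.516, with a median log2 fold change of -0.27. The adipocyte marker sum, the other sum tested, was 43270 ± 4579 CPM in knockout and 48050 ± 6297 CPM in wild-type fat (exact permutation p = 0.286). By gene, 11 of the 13 adipocyte markers were below 0, with a median log2 fold change of -0.29. The part of either cell type in the levels of Cav1, Cav2 and Ptrf was not tested.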

How the data were processed

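Polyadenylated RNA of epididymal fat was sequenced as 50-base single reads from stranded libraries of 4 knockout and 4 wild-type mice, per the labels' protocols. Novoalign 2.8.1, Picard and build mm10 are named, per the submitters' processing notes; of the counting program, the annotation and the strand setting the sources used here say nothing. The authors deposited 1 table with read counts and FPKM per gene and library, and no value column was left unused (0). Every one of 158499 deposited FPKM values above 0 matched count, length and column total to within 0.1%.

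Counts were tested as deposited with edgeR 4.0.16 (R 4.3.3): TMM scaling, filterByExpr with a minimum count of 10, a quasi-likelihood fit over genotype with all 8 libraries, and Benjamini-Hochberg adjustment over 14800 genes. DESeq2 1.42.0, limma 3.58.1 (voom), other scalings and filters, each library left out, a replicate block, both duct-marked knockout libraries left out and a duct marker covariate were the alternatives. The covariate was the mean log2 CPM of the duct epithelium markers. Likeness used log2 CPM with a prior count of 2 and genes of at least 1 CPM. The script was tested on simulated data. Marker sums were compared by exact permutation.

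Genes were named by rule: the 8 genes, Atg3, up to 3 genes per list with the lowest adjusted p, Spcs3 and the cavins, and the 5 genes most like each of 3 courses. A gene that this rule names is not reported here. The 8 genes and the lists were chosen with earlier results of these data known. P-values set a difference between genotypes against the variation between these mice. Sequences came from RefSeq (GRCm38.p6) and GENCODE M21; Tusc5 and Car3 had no promoter entry. At this depth the scarcest of the 8, Arxes1, had 214 reads or more in every library.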

Additional observations from a re-analysis of the deposited data

Results flagged for a closer look

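Of 34 groups of 4 libraries examined for a single value far from the other 3, 2 had one, and chance gives about 1 in 20. Car3 in knockout fat was low in library 3, at 11217 CPM, against 17307 to 17928 CPM in the other knockout libraries, a gap of 0.907 of the range where 0.829 is the critical value. The summed liver markers in wild-type fat were high in library 3, at 25.0 CPM against 8.60 to 10.1 CPM in the other wild-type libraries, a gap of 0.908 of the range; knockout libraries 1 and 4 held more, at 48.6 and 80.2 CPM.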

How the results depend on the processing

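The log2 fold change of Arxes1 stayed between -1.19 and -0.91 under 18 alternatives, and its adjusted p ran from 2.86e-07 to 0.256. Tusc5 (-0.82 to -0.43), Arxes2 (-0.79 to -0.42), Adig (-0.50 to -0.36) and Ptrf (-0.39 to -0.05) stayed below 0. With the duct marker covariate Car3 was at 0.082, Cav2 at 0.020 and Cav1 at 0.41. Duct content and genotype cannot be fully told apart in that fit. The duct marker sum did not overlap between genotypes, and the overlap of the covariate, a mean of log2 CPM, was not determined. Cav1 ran from -0.13 to 0.12 with 1 library left out. It was also above 0 without knockout library 2 (0.0032), knockout library 3 (0.12), wild-type library 3 (0.082) and both knockout libraries 2 and 3 (0.21).

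Over all genes, 60 were called by edgeR, 813 by DESeq2, 14 with a replicate block, 3 without both knockout libraries 2 and 3, 2 with the covariate and 0 to 290 with 1 library left out (0 without knockout library 2, with 1573 at an unadjusted p under 0.05). Of the 8 genes, 1 was called, 2 by DESeq2 (Arxes1 and Adig, adjusted p = 0.0185), 0 with the replicate block, without both libraries or with the covariate, and 0 to 1 with 1 library left out. Of the 87 related genes, DESeq2 called 8 and edgeR 0.

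The difference in the endothelial marker sum, -437 CPM (knockout minus wild type), ran from -503 to -354 CPM with 1 library left out. Its exact permutation p was 0.0571 without wild-type library 1, 2 or 3, and 0.0286 without wild-type library 4 or any 1 knockout library. Without both knockout libraries 2 and 3 the difference was -333 CPM (exact p = 0.0667, the smallest that the remaining libraries allow). Same-numbered libraries deviated with correlations of 0.184, -0.106, -0.254 and 0.0577. Of the 8 libraries, 2 correlated best with their own number, both of them numbered 1. These values show no steady pairing by number, but they cannot exclude one. With the replicate block the edgeR adjusted p of Arxes1 was 0.148. The cause of these shifts was not tested.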
